A study of Mus with 6 samples.

Results

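The FOS, JUN and small MAF genes were described in TCR-activated CD4+ T cells that had been cultured with or without a block of VEGF-B. The members were taken by symbol, and all 10 were among the 10995 protein-coding genes of the deposited table, namely the FOS genes Fos, Fosb, Fosl1 and Fosl2, the JUN genes Jun, Junb and Jund, and the small MAF genes Maff, Mafk and Mafg. Naive CD4+ T cells from the spleen of wild-type mice were stimulated for 3 days with anti-CD3 at 5 μg/mL and anti-CD28 at 2 μg/mL in the presence of IL-2 (100 U/mL). For 3 of the 6 libraries the cells received a neutralizing anti–VEGF-B antibody and for the other 3 normal goat IgG, each at 1 μg/mL for 3 days. The groups thus shared activation, cytokine and genotype and differed in the antibody. The paper does not settle whether the antibody was present from the start of activation. An antibody neutralizes secreted VEGF-B and leaves the gene itself intact, and the labels do not say whether the 3 libraries of a treatment came from separate mice, so p-values measure the spread between these libraries, which may be technical.

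AP-1 is a family of dimers rather than 1 protein. FOS proteins cannot pair with themselves and bind DNA together with a JUN protein through their basic leucine zippers, while JUN proteins can also pair with each other. In T cells the TCR drives AP-1 through the ERK and JNK kinases, CD28 adds to the JNK arm, and AP-1 then binds with NFAT at cytokine genes such as Il2. Fos and Fosb are immediate early genes whose mRNA rises and decays quickly after a stimulus, Fosl1 and Fosl2 (FRA-1 and FRA-2) lack the strong activation domain of FOS, and JUNB and JUND are weaker activators than JUN in many settings. The small MAF proteins have a basic leucine zipper and no activation domain of their own, and they pair with cap-n-collar factors such as NRF2 or with BACH repressors at antioxidant response elements.

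The values were treated as FPKM, which take account of transcript length and library size, so that levels can be set side by side between genes. The FPKM of a library summed to between 260058 and 276622, the reads behind them are unknown, and the precision rests on the 3 libraries per group. Genes averaging 1 FPKM or more (8816) were compared between groups as log2(FPKM + 1) with limma and Benjamini-Hochberg adjustment, a scale on which the change of low genes is understated. Over all genes the median log2 fold change was -0.15, and it was 0.0077 after quantile normalization and 0.049 after median centring. With a limma adjusted p under 0.05 as the limit for a call, 2099 genes fell and 429 rose, against 913 and 880 after quantile normalization and 807 and 1365 after median centring. Of the 6 T cell identity genes Cd3d, Cd3e, Cd3g, Cd4, Lck and Cd28, 1 fell and 0 rose, and their sum was 427 to 449.8 FPKM under anti–VEGF-B and 409 to 449 under IgG. Cd3e was the one that fell, from 14.3 to 18.6 FPKM under IgG to 9.60 to 12.9 under anti–VEGF-B (-0.51, limma adjusted p = 0.0197), and Cd3g, with overlapping groups, did not pass (-0.43, 0.0620). Of the activation markers Il2ra, Cd44, Mki67 and Tfrc, 2 of 4 fell, and their sum was 196 to 206 FPKM under anti–VEGF-B and 232 to 290 under IgG. The proliferation gene Mki67 was at 1.95, 2.28 and 2.04 FPKM under anti–VEGF-B and at 6.40, 9.54 and 7.13 under IgG. Of 5 myeloid markers 3 were analysed (Lyz2, Cd68 and Csf1r) and 0 were called, but their sum was 10.9 to 12.1 FPKM under anti–VEGF-B and 12.4 to 27.0 under IgG, highest in IgG replicate 3, where Lyz2 was at 16.4 FPKM. The only B cell marker analysed, Cd79b, was at most at 1.34 FPKM, Cd8a was at most at 0.182 FPKM, and the only NK cell marker analysed, Klrd1, was at most at 0.512 FPKM, while Cd8b1 was at 2.27 to 4.51 FPKM with overlapping groups. The part of Cd3e, of cell division and of myeloid RNA in the results on AP-1 was not tested, and in these bulk libraries fewer cells of a type and less RNA per cell cannot be told apart.

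With VEGF-B neutralized, 5 of the 10 members fell and 1 rose. Fos, Fosb, Fosl1, Jund and Mafg were lower with anti–VEGF-B, Fosl2 was higher, and Jun, Junb, Maff and Mafk did not pass. All 10 members passed the filter on low values. Fosb and Fosl1 did so only through the IgG group, as their anti–VEGF-B means were 0.790 and 0.873 FPKM. Nothing is read from the calls of Fosb and Fosl1, although the counts given here include them. Of all genes tested, 28.7% were called, 23.8% as lower and 4.87% as higher, beside 60.0% of the members. The members were chosen with earlier results of these data known, so that nothing is read from this difference. The values of the groups did not overlap for the 6 called members, while 49.0% of all genes tested had groups that did not overlap (38.5% lower and 10.5% higher). At an unadjusted p under 0.05 together with a log2 fold change over 0.5 in either direction, 3 members were called (Fos, Fosl1 and Mafg), against 12.7% of all genes. An exact permutation test of a single member cannot go below p = 0.1 with 3 against 3 libraries, and this value was reached by the 6 called members. The median log2 fold change of the members was -0.23, or -0.075 once the median over all genes was taken off. After median centring 1 member was lower (Fosl1) and 1 higher (Fosl2), while 24.6% of all genes were called, and without anti–VEGF-B replicate 3 Fosl1 alone passed, while 9.74% of all genes were called. Leaving out IgG replicate 2 or anti–VEGF-B replicate 1 left 3 calls each, with 15.4% and 19.0% of all genes.

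**Figure D1:**
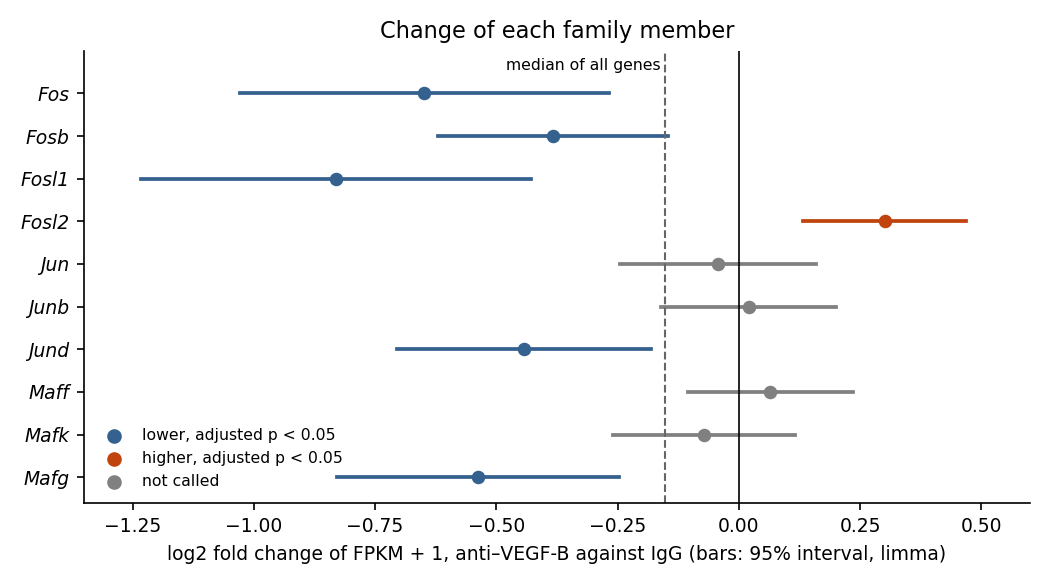
The log2 fold change of FPKM + 1 between anti–VEGF-B and IgG is plotted for each member, with 95% intervals from limma over 3 libraries per group. The points of Fos, Fosb, Fosl1, Jund and Mafg lie left of 0 and of the dashed median of all genes (-0.15), and the point of Fosl2 lies right of 0 with an interval from 0.13 to 0.47.

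Of the FOS genes, 3 low genes were called lower and 1 abundant gene higher, and nothing is read from the calls of Fosb and Fosl1. Fosl1 (ENSMUSG00000024912.5, chromosome 19 of GRCm38, 5447703 to 5455945, plus strand), which encodes FRA-1, was at 0.724, 1.14 and 0.753 FPKM under anti–VEGF-B and at 1.83, 3.43 and 1.90 under IgG. Every anti–VEGF-B library lay under every IgG library, with IgG replicate 2 the highest. The mean fell from 2.39 ± 0.904 to 0.873 ± 0.233 FPKM (SD, n = 3 each), or to 0.366 of the IgG level. On the log2 scale the change was -0.83 (SE, standard error, 0.178, limma adjusted p = 0.0129), and -0.68 once the median over all genes was taken off. The anti–VEGF-B mean of Fosl1 lay under the filter at 1 FPKM, so that it entered the test only through the IgG group. Nothing is read from its call. The filter used all 6 libraries, also in the fits that left out 1 of them. In those fits and under each scaling run its adjusted p stayed under 0.05, with -0.62 without IgG replicate 2 (limma adjusted p = 0.0191). The call was lost where the variances were not moderated.

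Fos (ENSMUSG00000021250.13, chromosome 12, 85473890 to 85477273, plus strand), the founding member and a short-lived immediate early gene, was at 2.19, 2.56 and 1.43 FPKM under anti–VEGF-B and at 3.9999, 4.43 and 2.91 under IgG. The groups did not overlap, although the highest anti–VEGF-B library was close to IgG replicate 3. The mean fell from 3.78 ± 0.785 to 2.06 ± 0.574 FPKM (SD, n = 3 each), with a log2 fold change of -0.65 (SE 0.169, limma adjusted p = 0.0230), or -0.50 relative to all genes. Fos did not pass after quantile normalization (limma adjusted p = 0.0808) or median centring (0.0589), or without IgG replicate 1 (0.0535), IgG replicate 2 (0.0689) or anti–VEGF-B replicate 3 (0.0765), and it was lower with anti–VEGF-B in each of these fits. Over all alternatives its adjusted p ran from 0.0106 to 0.124.

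Fosb (ENSMUSG00000003545.3, chromosome 7, 19302696 to 19310051, minus strand), another immediate early gene, was at 0.838, 0.844 and 0.688 FPKM under anti–VEGF-B and at 1.56, 1.18 and 1.27 under IgG. All values with anti–VEGF-B were again the lower ones. The mean fell from 1.34 ± 0.198 to 0.790 ± 0.0882 FPKM (SD, n = 3 each), with a log2 fold change of -0.38 (limma adjusted p = 0.0270), or -0.23 relative to all genes. Fosb had the lowest level of the members, with a mean of 1.06 FPKM against a filter at 1. It entered the test only through the IgG group, and nothing is read from its call. The call was lost under all 3 scalings (adjusted p from 0.0530 to 0.262 in limma). It was also lost in each of the fits that left out a library other than IgG replicate 2 (0.0536 to 0.0990). Over all alternatives the adjusted p ran from 0.0217 to 0.262.

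Fosl2 (ENSMUSG00000029135.10, chromosome 5, 32135801 to 32157842, plus strand), which encodes FRA-2, went the other way. It was at 170.1, 177 and 172 FPKM under anti–VEGF-B and at 145, 129.7 and 147 under IgG, so that every anti–VEGF-B library lay above every IgG library. The mean rose from 141 ± 9.48 to 173 ± 3.75 FPKM (SD, n = 3 each), which was 1.23 times the IgG level. On the log2 scale the change was 0.30 (SE 0.0742, limma adjusted p = 0.0191), or 0.45 relative to all genes, and 4.87% of all genes tested were called higher. The call held under quantile normalization (0.23, limma adjusted p = 0.0429), median centring (0.50, 0.0135) and scaling to Actb (0.37, 0.0441). It was lost without IgG replicate 2 (0.0506), anti–VEGF-B replicate 2 (0.0513) or anti–VEGF-B replicate 3 (0.0647), and ran from 0.0135 to 0.0759 over all alternatives.

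**Figure D2:**
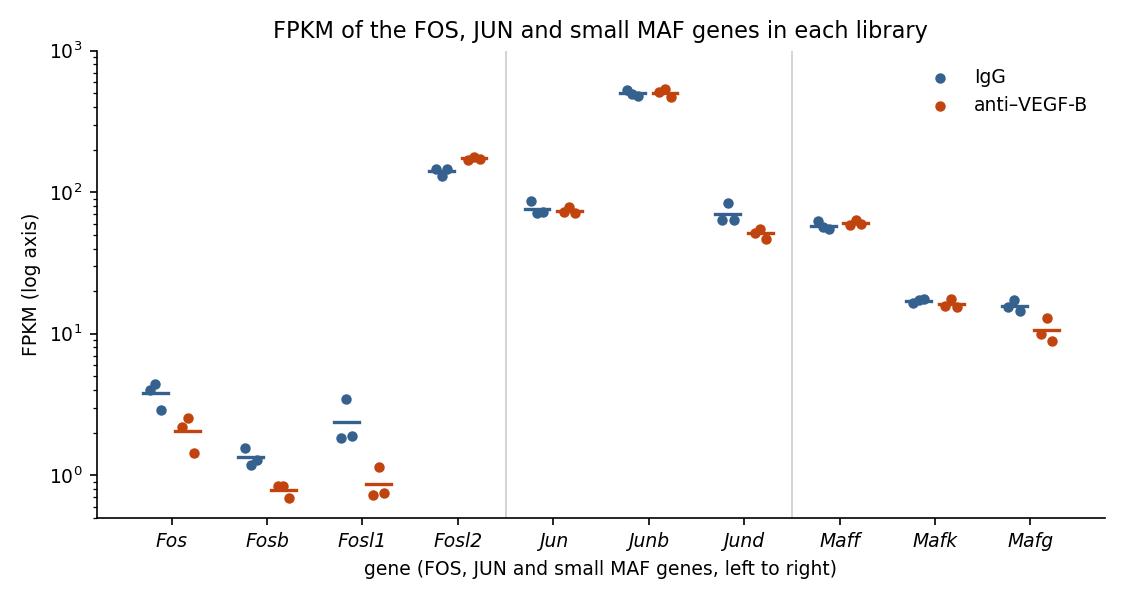
The FPKM of each member is plotted on a log axis for the 3 IgG and the 3 anti–VEGF-B libraries, with points for libraries and bars for group means. Junb lies between 471 and 538 FPKM, Fosl2 between 129.7 and 177, and Fos, Fosb and Fosl1 lie at or under 4.43 FPKM in all libraries.

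Among the JUN genes Jund fell, and Junb and Jun did not pass. Junb (ENSMUSG00000052837.6, chromosome 8, 84974484 to 84978718, minus strand) was the most abundant member, at 511, 538 and 471 FPKM under anti–VEGF-B and at 524, 496 and 478 under IgG. The groups overlapped, and the log2 fold change was 0.020 with a 95% interval from -0.16 to 0.20 (limma adjusted p = 0.865). Jun (ENSMUSG00000052684.4, chromosome 4, 95049034 to 95052222, minus strand), which encodes the strongest activator of the JUN proteins, was at 72.5, 78.2 and 71.5 FPKM under anti–VEGF-B and at 86.3, 71.3 and 72.04 under IgG. Apart from IgG replicate 1 all libraries lay close together, and the log2 fold change was -0.042 with a 95% interval from -0.24 to 0.16 (limma adjusted p = 0.742). The sign of both genes depended on the scaling, with Junb at -0.12 after quantile normalization and Jun at 0.16 after median centring.

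Jund (ENSMUSG00000071076.6, chromosome 8, 70698949 to 70700616, plus strand), a gene that is broadly expressed in resting cells, was at 51.6, 55.2 and 47.0 FPKM under anti–VEGF-B and at 63.9, 84.3 and 63.6 under IgG. The groups did not overlap, and IgG replicate 2 stood above the other IgG libraries. The mean fell from 70.6 ± 11.8 to 51.3 ± 4.11 FPKM (SD, n = 3 each), with a log2 fold change of -0.44 (SE 0.116, limma adjusted p = 0.0234), or -0.29 relative to all genes. Without IgG replicate 2 it was -0.31 (limma adjusted p = 0.0490). Jund lost its call without anti–VEGF-B replicate 1 (0.0550) or replicate 3 (0.0814), after median centring (0.0923) or when scaled to Actb (0.0539), and passed after quantile normalization (0.0278), within a range of adjusted p from 0.0128 to 0.124 over all alternatives.

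Of the small MAF genes Mafg fell, and Maff and Mafk did not pass. Mafg (ENSMUSG00000051510.13, chromosome 11, 120625117 to 120633600, minus strand) was at 9.98, 13.01 and 8.96 FPKM under anti–VEGF-B and at 15.5, 17.2 and 14.6 under IgG. Each anti–VEGF-B library was under each IgG library. The mean fell from 15.8 ± 1.33 to 10.6 ± 2.11 FPKM (SD, n = 3 each), with a log2 fold change of -0.54 (SE 0.129, limma adjusted p = 0.0177), or -0.38 relative to all genes. Its call held after quantile normalization (0.0395) and when scaled to Actb (0.0423), and was lost after median centring (0.0623) and without IgG replicate 2 (0.0558), anti–VEGF-B replicate 1 (0.0520) or anti–VEGF-B replicate 3 (0.0622), within a range from 0.0119 to 0.109 over all alternatives.

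Maff (ENSMUSG00000042622.13, chromosome 15, 79347541 to 79359072, plus strand), the small MAF gene that is induced by stimuli, was at 59.0, 63.5 and 59.4 FPKM under anti–VEGF-B and at 62.1, 56.4 and 55.3 under IgG. The groups overlapped, with a log2 fold change of 0.065 and a 95% interval from -0.10 to 0.23 (limma adjusted p = 0.529). Mafk (ENSMUSG00000018143.10, chromosome 5, 139791513 to 139802653, plus strand) was at 15.6, 17.7 and 15.5 FPKM under anti–VEGF-B and at 16.5, 17.4 and 17.5 under IgG. Its groups overlapped too, with a log2 fold change of -0.072 and an interval from -0.26 to 0.12 (limma adjusted p = 0.530), and its sign turned after median centring and after quantile normalization.

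**Figure D3:**
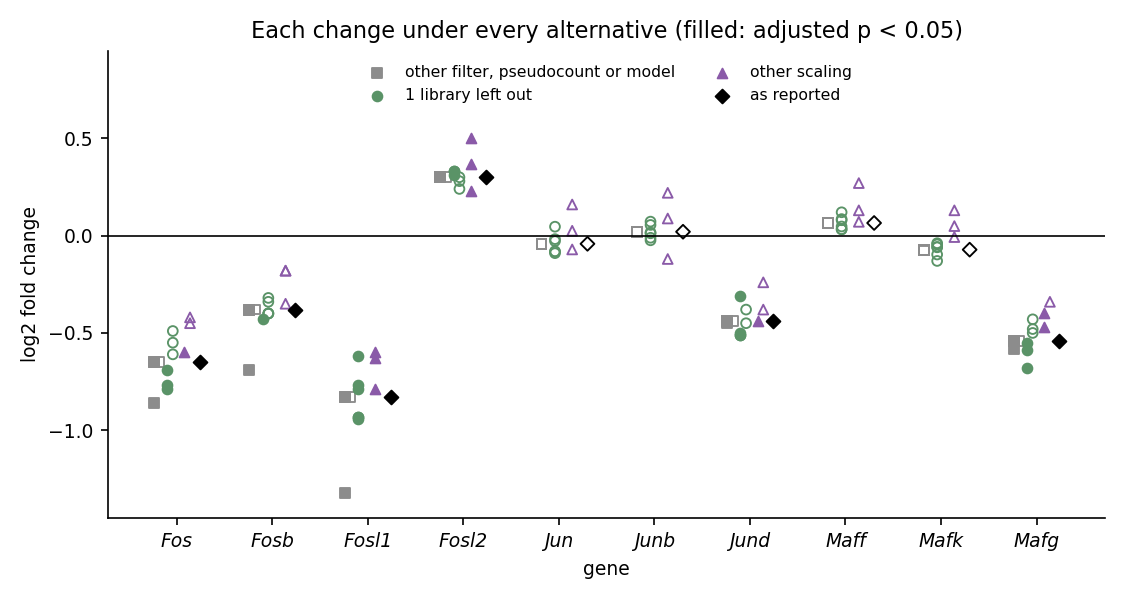
The log2 fold change of each member is plotted as reported (diamonds), with 1 library left out (circles), under another scaling (triangles) and under another filter, pseudocount or model (squares), filled where the adjusted p was under 0.05 in that fit. Fos, Fosb, Fosl1, Jund and Mafg stay under 0 and Fosl2 stays above 0 in all fits, many of the points of Fosb are open, and the points of Jun, Junb and Mafk lie on both sides of 0.

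The order of the members by FPKM was much the same in both groups. Junb was the most abundant and Fosl2 the next, and neither range overlapped its neighbour. With IgG, Jun (76.5 FPKM) and Jund (70.6 FPKM) ranked 3 and 4 with overlapping ranges, and Maff followed at 58.0 FPKM. With anti–VEGF-B, Jun (74.1 FPKM) was followed by Maff (60.6 FPKM) and then Jund (51.3 FPKM), and these ranges did not overlap. Mafk and Mafg overlapped with IgG but not with anti–VEGF-B. Fos, Fosl1 and Fosb were the lowest in this order with IgG, where the range of Fos overlapped that of Fosl1, and with anti–VEGF-B, where the range of Fosl1 overlapped that of Fosb. Junb was higher than 99.1% of the genes of the table by mean FPKM and Fosl2 than 97.8%, while Fos was higher than 42.3% and Fosb than 20.9%.

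The summed level of each subfamily was set mostly by 1 gene. Fosl2 made up 94.9 ± 1.29% of the FOS FPKM under IgG and 97.9 ± 0.431% under anti–VEGF-B (SD, n = 3 each). The FOS sum was therefore higher with anti–VEGF-B, at 174, 182 and 175 FPKM against 153, 139 and 153, although 3 of its 4 genes had lower values. Fos, Fosb and Fosl1 together came to 3.75, 4.54 and 2.87 FPKM under anti–VEGF-B and 7.39, 9.05 and 6.08 under IgG. Junb made up 80.2 ± 0.299% of the JUN FPKM under anti–VEGF-B and 77.2 ± 0.970% under IgG, and the JUN sum overlapped between groups (589 to 671 against 613 to 674 FPKM). Maff made up 69.3 ± 1.79% of the small MAF FPKM under anti–VEGF-B and 63.8 ± 2.05% under IgG, and this sum overlapped as well (83.9 to 94.2 against 87.3 to 94.1 FPKM). Shares of FPKM describe mRNA and not the dimers that form.

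A ratio of FPKM between a pair of genes of 1 library is not altered by 1 factor per library, such as scaling to Actb, although quantile normalization does change it. The ratio was formed from the deposited values for all 12 pairs within a subfamily with the calls known. The groups did not overlap for 7 pairs, each of which set a called member against a member that was not called or that moved the other way. These pairs restate those calls and share genes, so that nothing is read from their number. The ratio of Fosl2 to Fos was 77.8, 69.3 and 120.2 under anti–VEGF-B and 36.4, 29.3 and 50.4 under IgG, 2.30 times higher on average. Fosl2 to Fosl1 rose from 64.8 ± 23.4 to 206 ± 44.1 and Fosl2 to Fosb from 106 ± 11.5 to 221 ± 25.5 (SD, n = 3 each). Under anti–VEGF-B the denominators were low, at 0.724 to 1.14 FPKM for Fosl1 and 0.688 to 0.844 for Fosb. With the reads behind them unknown, the size of these ratios is uncertain. The ratios among Fos, Fosb and Fosl1 overlapped between groups. Junb to Jund was 9.91, 9.74 and 10.01 under anti–VEGF-B and 8.20, 5.89 and 7.51 under IgG, whereas Junb to Jun overlapped (6.58 to 7.05 against 6.07 to 6.96). Maff to Mafg was 5.91, 4.88 and 6.64 under anti–VEGF-B and 4.01, 3.28 and 3.79 under IgG, and Mafk to Mafg was also without overlap. For each of these 7 pairs a two-sided exact permutation test gave p = 0.1, the smallest that 3 against 3 libraries allow, so that no pair can pass a threshold of 0.05 on its own.

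**Figure D4:**
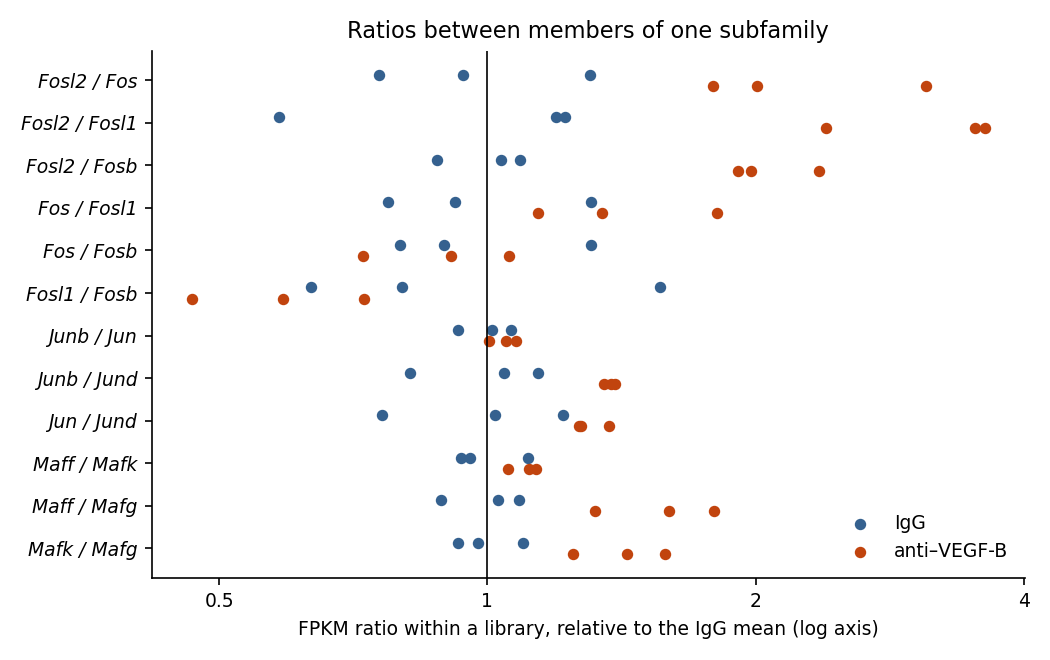
The FPKM ratio of each pair of genes within a subfamily is plotted per library, divided by the mean ratio of the IgG libraries, on a log axis. The anti–VEGF-B points of Fosl2 over Fos, Fosl1 and Fosb, of Junb and Jun over Jund and of Maff and Mafk over Mafg lie right of all IgG points, and the other 5 pairs overlap.

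Genes that work with these factors were followed by lists written from general knowledge with earlier results of these data known. The shares called in these lists are therefore a description only. Among 7 tested basic leucine zipper partners (Atf2, Atf3, Atf7, Jdp2, Batf, Batf3 and Maf), 1 fell (14.3% called, against 28.7% of all genes), with a median log2 fold change of -0.23. This was Batf, which pairs with JUN proteins and IRF4 in T cells, at 31.6, 31.9 and 23.2 FPKM under anti–VEGF-B and 36.3, 51.3 and 35.6 under IgG (-0.48, limma adjusted p = 0.0489). Batf passed in 2 of 15 alternatives (adjusted p from 0.0201 to 0.195 in limma) and was lost without each library except IgG replicate 3 (0.0532 to 0.154). Atf3, a stress-induced partner of JUN, was at 147 to 153 FPKM under anti–VEGF-B and 134 to 139.6 under IgG and did not pass (0.12, limma adjusted p = 0.178). After median centring the only call in this list was Atf3, as higher, and Batf was lost. Of the 4 tested cap-n-collar and BACH genes that pair with small MAF proteins, 1 fell (25.0% called, against 28.7% of all genes), namely Nfe2l2, which encodes NRF2, the main activator at antioxidant response elements. Nfe2l2 was at 12.4, 11.2 and 10.9 FPKM under anti–VEGF-B and 21.7, 20.5 and 17.5 under IgG (-0.74, limma adjusted p = 0.00488). Bach1 (0.17) and Bach2 (-0.019), which encode repressors at the same elements, did not pass, with adjusted p-values of 0.194 and 0.915 from limma, and Bach1 was called as higher after median centring.

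Upstream of AP-1, 11 of 32 tested genes of the MAP kinase cascade fell and 0 rose (34.4% called, against 28.7% of all genes), with a median log2 fold change of -0.19, close to that of all genes. Among those that fell were Map3k8, which encodes the ERK pathway kinase TPL2 (-0.60, limma adjusted p = 0.00491), and Map3k3, which encodes the kinase MEKK3 (-0.44, 0.0130). Map3k8 was at 18.9 ± 1.26 FPKM under anti–VEGF-B and 29.2 ± 1.81 under IgG (SD, n = 3 each). The count for this list was 3 without IgG replicate 2, 5 without anti–VEGF-B replicate 1, 6 without anti–VEGF-B replicate 2 and 2 without anti–VEGF-B replicate 3, where Map3k3 was at an adjusted p of 0.0519 in limma (0.0127 to 0.0720 over all alternatives). After median centring 2 genes were lower and 3 higher, and after quantile normalization 5 were lower and 2 higher. Mapk3, which encodes ERK1, and the JNK genes Mapk8 and Mapk9 did not pass, with log2 fold changes of -0.052, 0.17 and -0.21.

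Of 11 factors that bind the Fos or Jun promoters, 2 fell and 2 rose (36.4% called, against 28.7% of all genes). After quantile normalization 1 was lower and 4 were higher, and after median centring 1 was lower and 3 were higher, with Srf lost in both, Creb1 gained in both and Elk1 gained in the former. Elk3, a ternary complex factor that acts with SRF, fell (-0.58, limma adjusted p = 0.0138), as did Srf (-0.30, 0.0402). Crem, a cAMP-responsive factor with activator and repressor forms, rose from 34.7 ± 4.49 to 50.7 ± 7.09 FPKM (SD, n = 3 each, 0.53, limma adjusted p = 0.0162), and Mef2d, a MEF2 factor, rose as well (0.39, 0.0463). The count was 2 without IgG replicate 3, 2 without anti–VEGF-B replicate 2 and 0 without anti–VEGF-B replicate 3. The calls of Srf and Mef2d were each lost in 5 of the 6 fits that left out 1 library (adjusted p from 0.0520 to 0.143 and from 0.0850 to 0.144 in limma), namely for Srf all but the one without IgG replicate 2 and for Mef2d all but the one without anti–VEGF-B replicate 1. Crem lost its call without anti–VEGF-B replicate 1 or 3 (0.0501 and 0.0598), and Elk3 lost it without anti–VEGF-B replicate 3 (0.0539). Over all alternatives the adjusted p ran from 0.0388 to 0.489 for Srf, from 0.0155 to 0.170 for Mef2d, from 0.00847 to 0.110 for Crem and from 0.0133 to 0.0851 for Elk3.

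Of 10 genes of FOS and JUN turnover, 2 fell and 1 rose (30% called, against 28.7% of all genes), and after median centring 0 were lower and 2 higher (Gsk3b and Zfp36l2). Zfp36l1 (-0.63, limma adjusted p = 0.0169) and Zfp36l2 (0.34, 0.0170), which encode related proteins that speed the decay of mRNAs with AU-rich elements, moved in opposite directions. The call of Zfp36l1 was lost after median centring (-0.43, limma adjusted p = 0.0917), within a range from 0.0173 to 0.117 over all alternatives. Zfp36l2 was at 203, 214 and 211 FPKM under anti–VEGF-B and 176, 149.8 and 172 under IgG. Zfp36, which encodes the related protein tristetraprolin, did not pass (-0.10, limma adjusted p = 0.423). Without anti–VEGF-B replicate 3 the count was 1 and Zfp36l2 did not pass (0.0614), within a range of its adjusted p from 0.0140 to 0.0826 over all alternatives.

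Among 12 tested genes with well-known AP-1 or NFAT–AP-1 sites, 5 fell and 2 rose (58.3% called, against 28.7% of all genes), with a median log2 fold change of -0.28. Cd69, an early activation marker, fell from 11.3 ± 0.651 to 6.35 ± 0.198 FPKM, Tnf fell from 28.4 ± 3.67 to 15.96 ± 1.02 FPKM, and Il2ra, which encodes the IL-2 receptor alpha chain, fell from 117 ± 28.9 to 58.3 ± 7.01 FPKM (SD, n = 3 each). Their log2 fold changes were -0.74, -0.79 and -0.97, with adjusted p-values of 0.00469, 0.00471 and 0.00664 from limma. The best-known target, Il2, was at 1.33, 1.77 and 1.42 FPKM under anti–VEGF-B and 0.801, 0.583 and 0.292 under IgG (0.69, limma adjusted p = 0.0104). Its mean over all libraries was 1.03 FPKM against a filter at 1, with 0.559 under IgG. It thus entered the test only through the group where it was high. Nothing is read from its call, which is 1 of the 2 rises. Plaur, which encodes the urokinase receptor, was also higher (0.54, 0.0285), and its call was lost in each fit that left out a library other than IgG replicate 1 (adjusted p from 0.0560 to 0.0780 in limma, and from 0.0140 to 0.125 over all alternatives). Vim, which was abundant at 270.5 to 313 FPKM, did not pass (0.060, limma adjusted p = 0.580).

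Of 7 tested genes with antioxidant response elements, at which small MAF and cap-n-collar factors bind, 3 fell and 1 rose (57.1% called, against 28.7% of all genes). Gclc, which encodes the catalytic subunit of the enzyme that starts glutathione synthesis, fell from 8.83 ± 1.17 to 5.09 ± 0.391 FPKM (SD, n = 3 each, -0.68, limma adjusted p = 0.00657). G6pdx, of the pentose phosphate pathway, and Txnrd1, a thioredoxin reductase gene, fell too (-0.59, 0.0161 and -0.30, 0.0372). Fth1, which encodes the ferritin heavy chain, rose from 522 ± 28.8 to 733 ± 42.9 FPKM (0.49, limma adjusted p = 0.00690). Ferritin genes have processed copies elsewhere in the genome among which reads could be split, and whether this affected the value was not tested. Hmox1, a heme oxygenase gene, was at 55.4 to 57.7 FPKM under anti–VEGF-B and 47.6 to 52.0 under IgG and did not pass (0.20, limma adjusted p = 0.0626), but it was called as higher after median centring and without IgG replicate 1, which gave 2 lower and 2 higher genes each. Without anti–VEGF-B replicate 3 the count was 2, where G6pdx was at an adjusted p of 0.0567 in limma, and Txnrd1 was lost in each fit that left out a library other than anti–VEGF-B replicate 2 (0.0544 to 0.135). Over all alternatives the adjusted p ran from 0.00951 to 0.101 for G6pdx and from 0.0373 to 0.506 for Txnrd1.

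Of 17 immediate early genes outside the family, 10 fell and 2 rose (70.6% called, against 28.7% of all genes) and a median log2 fold change of -0.46. The lowest p-values among those that fell belonged to Dusp6, which encodes a phosphatase of ERK (-1.06), Ier5 (-0.85) and Ier2 (-1.28), with adjusted p-values of 0.00469, 0.00469 and 0.00488 from limma. Ier2 was at 23.0, 25.7 and 15.98 FPKM under anti–VEGF-B and at 52.8, 62.8 and 44.4 under IgG. Dusp5, which encodes a nuclear phosphatase of ERK, rose from 71.9 ± 0.357 to 107 ± 6.28 FPKM (SD, n = 3 each, 0.57, limma adjusted p = 0.00469), and Klf4, a quiescence factor of T cells, rose as well (0.44, 0.0182). Without anti–VEGF-B replicate 3 the count was 6, and Klf4 lost its call without anti–VEGF-B replicate 2 (0.0532) or replicate 3 (0.0567), within a range from 0.0135 to 0.104 over all alternatives.

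**Figure D5:**
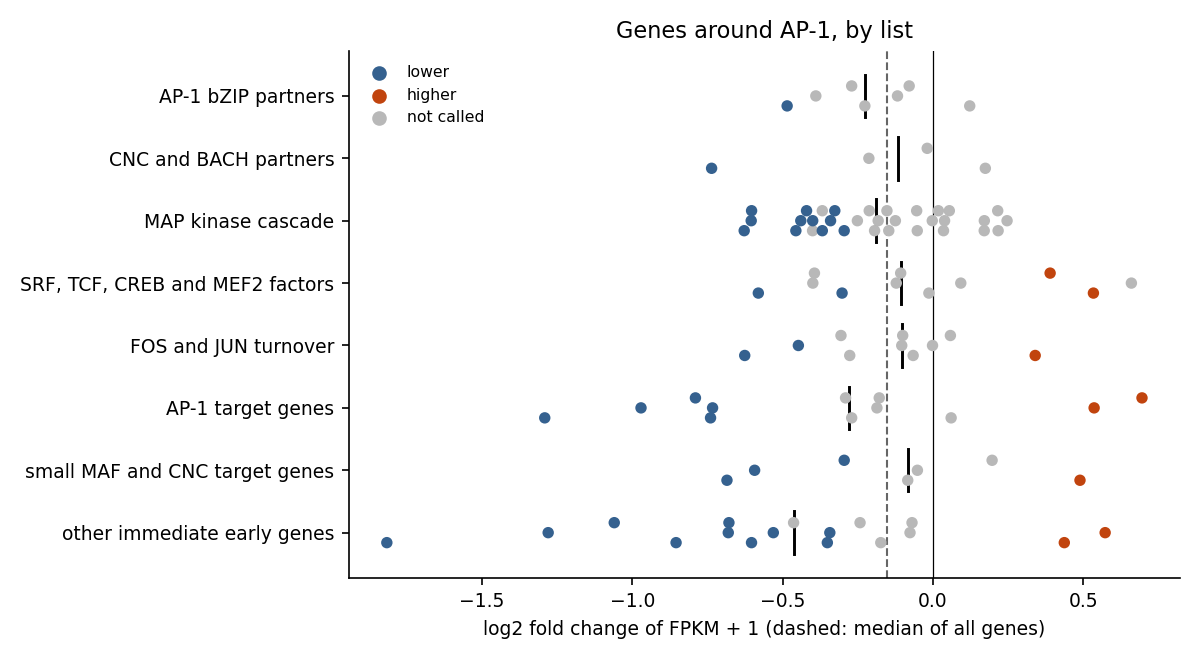
The log2 fold change of FPKM + 1 is plotted for each tested gene of 8 lists, with black bars at the medians, blue and orange points for called falls and rises and a dashed line at the median of all genes (-0.15). The median of the immediate early genes (-0.46) lies farthest to the left. That list and the lists of promoter-binding factors, turnover genes and both kinds of target hold called genes on both sides of 0.

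Some genes outside the lists had a profile over the 6 libraries close to that of a called member with a mean of at least 5 FPKM. For Fosl2 these were Alkbh5, Ndufv2 and Vps37b, with Pearson correlations of log2(FPKM + 1) of 0.998, 0.996 and 0.996. Vps37b, an ESCRT subunit gene, was at 159 FPKM under anti–VEGF-B and 78.0 under IgG on average (1.03, limma adjusted p = 0.00469). For Jund they were Cpsf3 (0.999), D10Jhu81e (0.998) and Rbbp7 (0.998), and for Mafg they were Fam45a (0.998), Supt5 (0.998) and Vav2 (0.998). These correlations over 6 libraries share the difference between the groups and the scaling of each library, and 1.99% of the other genes tested had a correlation over 0.95 with Fosl2, 10.6% with Jund and 3.51% with Mafg.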

How the data were processed

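CD4+ T cells were profiled by RNA-Seq in 6 libraries. The authors aligned stranded reads to GRCm38 with hisat2 (2.1.0), quantified them with StringTie (1.3.3) and Ballgown (2.10.0), and deposited 1 table of FPKM per gene and library, with 0 further columns of sample values. The table is named as raw data, yet it holds fractional values, which were read as FPKM and given no count model. Low values showed no shared step worth 1 read (at most 2.62% of low genes shared a ratio between a pair of libraries). No step between libraries or filter is given in the sources used here.

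Genes averaging 1 FPKM or more (8816) entered a limma fit (3.58.1, R 4.3.3; trended empirical Bayes) of log2(FPKM + 1) with all 6 libraries and no covariate, and calls were made at an adjusted p under 0.05 over all genes tested. The method was tested on simulated independent normal values with few genes changed and no shift shared within a library. The present data differ in this, so that test does not check the calls themselves. All members were named, with up to 3 rises and 3 falls of lowest p per list and the 3 genes most like each called member of at least 5 FPKM. Other genes named (Mki67, Lyz2, Atf3, Bach1, Bach2, Mapk3, Mapk8, Mapk9, Creb1, Elk1, Gsk3b, Zfp36, Vim, Hmox1, Cd3e and Cd3g) were chosen after their values were seen. Members and lists were chosen with earlier results of these data known. Map2k7 was listed on more than 1 row and left out. Alternatives changed scaling, filter, pseudocount, moderation, threshold, pairing and libraries. Some genes that this rule takes are not reported here. Protein and promoter sequences were not analysed here.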

Additional observations from a re-analysis of the deposited data

How the results depend on the processing

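Of the 10 members, 6 were called. The count was 3 with a filter at 5 FPKM (which removes Fos, Fosb and Fosl1), 2 after median centring, 0 with no moderation of the variance, 3 at the limits p under 0.05, unadjusted, and log2 fold change over 0.5 in size, and 1 to 5 with 1 library left out. With no moderation 12 of all genes passed, with 0 calls in each of the 8 lists. Partners of AP-1 (1 call) had 0 to 1 with 1 library left out and 0 with at least 5 FPKM, without trend, with a pseudocount of 0.1, after quantile normalization, when scaled to Actb and at the limits on unadjusted p and fold change. The cap-n-collar list (1) had 2 after median centring. The MAP kinase list (11) had 5 with at least 5 FPKM, 5 after median centring, 7 after quantile normalization, 6 when scaled to Actb, 3 at the unadjusted limits and 2 to 12 with 1 library left out. The list of promoter-binding factors (4) had 2 with at least 5 FPKM, 2 when scaled to Actb and 0 to 4 with 1 library left out. Turnover genes (3) had 1 at the unadjusted limits and 1 to 4 with 1 library left out, and the antioxidant list (4) had 2 at those limits and 2 to 4. AP-1 targets (7) had 6 to 7 and immediate early genes (12) had 6 to 12 with 1 library left out. The ratio of summed FPKM was 1.37 for FOS genes, 1.12 for JUN genes and 1.11 for small MAF genes after median centring, against 1.19, 0.978 and 0.964 as deposited. Signs turned for Jun (0.16 after median centring, 0.025 when scaled to Actb, and -0.09 to 0.046 with 1 library left out, above 0 without IgG replicate 1), Junb (-0.12 after quantile normalization, and -0.024 to 0.072 with 1 library left out, under 0 without anti–VEGF-B replicate 2 and, at -0.011, without IgG replicate 3), Mafk (0.13 after median centring, 0.049 after quantile normalization) and Supt5 (0.0023 after median centring). Apart from the settings with fewer genes or libraries, the cause was not tested.

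Over all genes tested, the deviations of same-numbered libraries from their group means correlated at -0.0296, 0.110 and 0.0891. Differently numbered libraries had -0.175 to 0.0997, and the numbers were not taken as pairs. Fos, Fosl1, Jund and Mafg did have the same order of replicates in both groups. Their adjusted p-values from limma were lower with the replicate block, at 0.0106, 0.00988, 0.0128 and 0.0119. Those of Fosb and Fosl2 were higher with it (0.0376 and 0.0228). With the replicate block 6 members were called and Fos, Fosb, Fosl1, Fosl2, Jund and Mafg all passed, while Srf did not (adjusted p = 0.0554 from limma). Depth is unknown, and Fosb and Fosl1 lie near 1 FPKM, where its effect on the spread cannot be seen.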
